A study of Mus musculus with 6 samples.

Results

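The genes described here are 10 targets of p53, the transcription factor that DNA damage and other stresses activate: Cdkn1a, Plk2, Tnfrsf10b, Mdm2, Bax, Ccng1, Sesn2, Trp53inp1, Zmat3 and Phlda3. They were taken by symbol from a table of 11779 genes, where 9 of the 10 were found. Sesn2 was not analysed here. RNA-seq read counts came from 6 libraries of long-term hematopoietic stem cells, the rare marrow cells that sustain blood production, sorted from female mice aged 8 weeks as cells without lineage markers or CD48 that carried Sca-1, c-Kit and CD150. The WT group (3 libraries, numbered 1, 3 and 4) had the genotype c-Mycfl/+, with 1 floxed allele of Myc and no Cre. The HET group (3 libraries, also numbered 1, 3 and 4) had the genotype c-Mycfl/+Mx1Cre, which adds a Cre recombinase driven by the interferon-responsive Mx1 promoter and so not restricted to blood stem cells. Deletion was induced with 3 injections of poly(I:C), a double-stranded RNA analog that triggers interferon, at 6 mg/kg. The design text does not state separately whether WT mice were injected, and the sample titles call the HET libraries knockouts. Nothing in the labels says that each library came from a separate mouse, so p-values measure the spread between these libraries.

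In resting cells p53 protein is held low by MDM2, a ubiquitin ligase that p53 itself induces. When that hold is released, p53 binds DNA at a pair of adjacent 10-base half-sites and raises genes that stop the cell cycle, promote cell death, or damp growth signals. In blood stem cells p53 is known to act in quiescence and in the response to irradiation, and MYC is known for its part in growth and in leaving the niche. Expression of p53 targets therefore bears on both arrest and survival of these cells.

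Total counts lay between 4249490 and 5600856 in 5 libraries and reached 9886223 in HET 1, the deepest library. Levels below are CPM (a gene's share of the library's counts, on the usual CPM scale, with library size scaled by the TMM method), and 3 counts correspond to between 0.298 and 0.715 CPM. Myc, the targeted gene, measured 427.4 to 541.8 CPM in WT and 293.8 to 386.7 CPM in HET. These are whole-gene counts, so reads outside the floxed segment are included. The groups did not overlap for Myc, but it did not pass the edgeR test used below (log2 fold change -0.43). Markers of the sort were present: Kit averaged 1157 and 1193 CPM, and Slamf1 (CD150) 73.8 and 68.2 CPM, in WT and HET. Cd48, which the sort excluded, averaged 2.55 CPM in WT and 6.97 CPM in HET, with no overlap (1.67 to 3.25 against 3.67 to 8.96 CPM, edgeR adjusted p = 0.849). Of the 14 neutrophil and monocyte markers listed, all were in the table and none was at 0 in every library, with summed levels of 281.2 to 815.8 CPM in WT and 360.3 to 624.7 CPM in HET. Megakaryocyte markers (10 of 11 in the table) summed to 1368 to 1476 CPM in WT and 1612 to 1836 CPM in HET, and erythroid markers (8 of 12) to 775.8 to 884.0 and 667.3 to 750.0 CPM, with no overlap in either. Lymphocyte markers (7 of 15) summed to 33.86 to 43.91 and 34.49 to 47.81 CPM, and stromal markers (6 of 10) to 169.6 to 234.0 and 223.9 to 242.3 CPM. The part of these cell type markers in the results below was not tested.

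Among the 9 p53 targets measured, 1 fell in HET, Plk2, and 0 rose. The test was edgeR's quasi-likelihood test with Benjamini-Hochberg adjustment over 10869 genes and a threshold of 0.05. Over all genes tested 0.221% fell, 0.0368% rose and 0.258% changed in either direction (28 genes). An unadjusted p under 0.05 was reached by 3 of the 9 and by 5.22% of all genes. For Cdkn1a and Tnfrsf10b the groups were separated too, with HET the lower, but neither passed the test. The other 6, Mdm2, Ccng1, Bax, Trp53inp1, Zmat3 and Phlda3, overlapped between the groups. Groups therefore did not overlap for 3 of 9 targets, 33.3%, each lower in HET, against 10.3% of all genes tested in either direction and 5.64% in that direction. The median log2 fold change of the 9 was -0.16, against 0.00 over all genes. In bulk RNA from sorted cells, fewer cells carrying a transcript and less transcript per cell cannot be told apart.

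**Figure D1:**
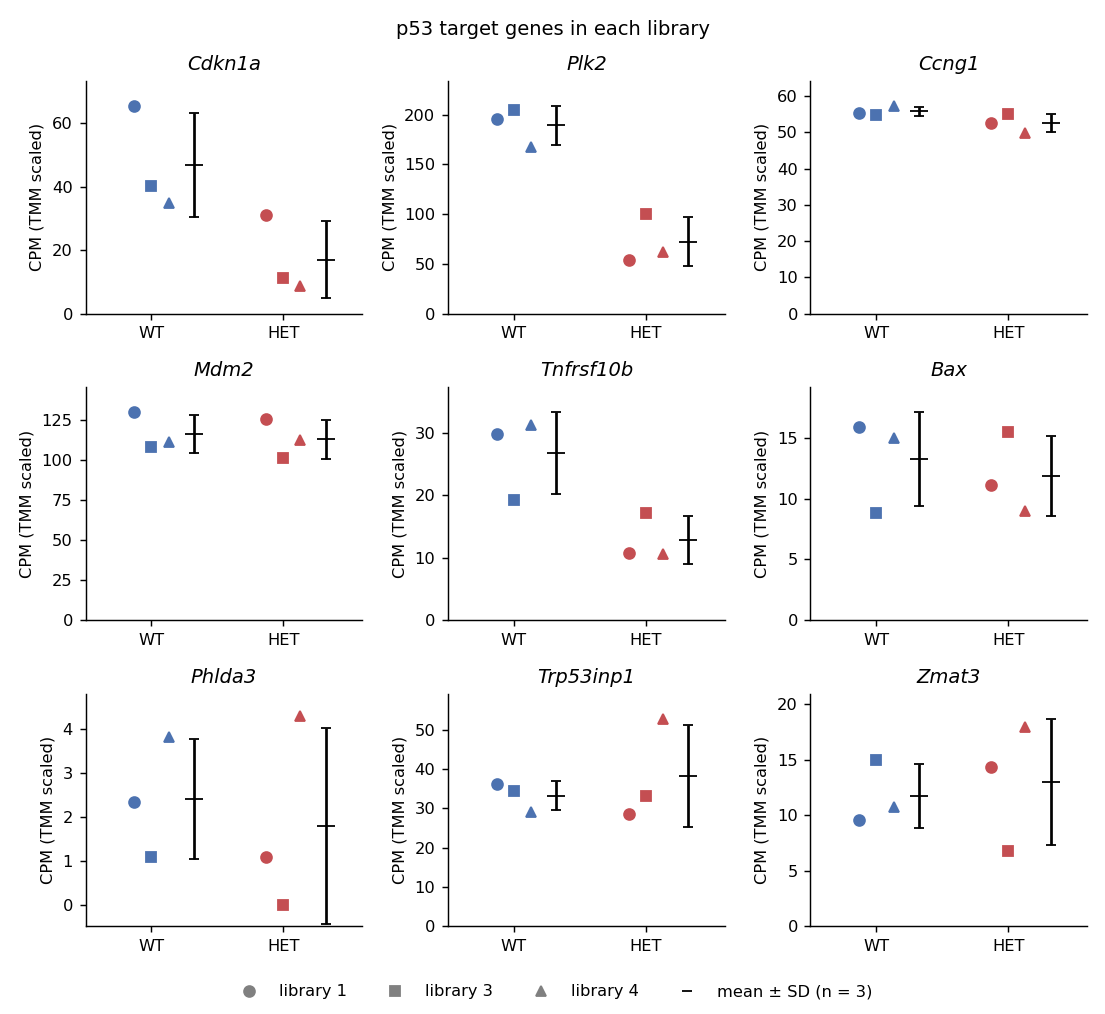
Level of each p53 target in CPM (vertical axis, from 0 except for Phlda3, whose error bar runs below 0) in the 3 WT and 3 HET libraries, with a symbol shape for each library number and mean ± SD beside the points. Plk2, Cdkn1a and Tnfrsf10b show all HET points below all WT points, and Ccng1 shows the narrowest scatter.

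Promoter sequence was found for 7 of the 10 genes in RefSeq's table for GRCm38.p6, the assembly also called mm10. Tnfrsf10b, Trp53inp1 and Zmat3 had no sequence there and were not searched for motifs. The windows below cover the 250 bases before a transcription start and show 4 genes with p53 half-sites, of which only Cdkn1a separated the genotypes, and Plk2, the gene that fell. They are written 5′ to 3′ on the gene's strand. Capitals mark p53 half-sites and the decamers that adjoin them in the 20-base stretches named below, the E-box CACGTG (a MYC-binding motif) and the cAMP response element TGACGTCA. The half-site is the 10-base p53 consensus, which reads the same on both strands, as do both other motifs.
Cdkn1a, chr17:29090729-29090978, plus strand: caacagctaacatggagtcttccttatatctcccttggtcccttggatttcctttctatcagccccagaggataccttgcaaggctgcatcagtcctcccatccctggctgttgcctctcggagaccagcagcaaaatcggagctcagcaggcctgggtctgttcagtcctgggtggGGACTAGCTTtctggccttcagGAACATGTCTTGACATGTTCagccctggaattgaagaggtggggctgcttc
Ccng1, chr11:40755287-40755536, minus strand: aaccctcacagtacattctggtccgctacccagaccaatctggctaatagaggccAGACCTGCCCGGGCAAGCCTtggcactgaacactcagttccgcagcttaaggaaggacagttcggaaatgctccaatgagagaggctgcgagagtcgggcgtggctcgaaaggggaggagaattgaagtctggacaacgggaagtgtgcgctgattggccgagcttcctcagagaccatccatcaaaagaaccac
Mdm2, chr10:117710759-117711008, minus strand: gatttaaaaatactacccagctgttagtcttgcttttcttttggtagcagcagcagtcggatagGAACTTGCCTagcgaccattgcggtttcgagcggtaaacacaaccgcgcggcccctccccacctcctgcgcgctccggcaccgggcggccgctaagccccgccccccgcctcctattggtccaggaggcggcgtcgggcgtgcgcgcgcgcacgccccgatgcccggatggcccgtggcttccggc
Bax, chr7:45466899-45467148, minus strand: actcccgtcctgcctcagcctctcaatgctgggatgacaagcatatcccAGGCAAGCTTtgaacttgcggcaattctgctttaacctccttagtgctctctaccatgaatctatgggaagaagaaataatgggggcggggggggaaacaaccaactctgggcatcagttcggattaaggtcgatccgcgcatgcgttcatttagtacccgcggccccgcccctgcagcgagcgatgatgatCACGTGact
Plk2, chr13:110394794-110395043, plus strand: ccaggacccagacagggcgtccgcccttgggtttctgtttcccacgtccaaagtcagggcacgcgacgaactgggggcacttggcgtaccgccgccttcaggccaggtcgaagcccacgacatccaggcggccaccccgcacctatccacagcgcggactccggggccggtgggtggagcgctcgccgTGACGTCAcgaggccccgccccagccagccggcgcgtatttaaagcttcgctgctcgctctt

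A p53 half-site was found in 7.13% of 32851 windows of this length from all genes. Cdkn1a had 2 perfect half-sites, beginning 73 and 51 bases before the start, and 2 or more were found in 0.259% of windows. The half-site at 51 bases is followed directly by another decamer, and the resulting stretch of 20 bases, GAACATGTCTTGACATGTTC, departs from the p53 consensus at 1 base. Ccng1 also had such a stretch, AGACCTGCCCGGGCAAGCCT, beginning 195 bases before its start, again with 1 mismatch. Stretches of this kind were found in 25 of the 32851 windows, 0.0761%. Cdkn1a has another RefSeq start 2790 bases downstream, whose window held none of these motifs. Mdm2 and Bax had 1 half-site each, and Bax also had an E-box 9 bases before the start, a motif found in 6.02% of windows. In the Plk2 window no p53 half-site was found, and the cAMP response element, present in 1.55% of windows, began 62 bases before the start. The windows that are not shown held none of these motifs. All of these are matches of letters in a short window, and binding was not measured.

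The first group holds the targets that act on cell division. Plk2 encodes a polo-like kinase that is also known as the serum-inducible kinase, for its fast induction by growth factors (chromosome 13, 110395046 to 110400844, plus strand, GENCODE M21 on GRCm38). Libraries WT 1, 3 and 4 gave 195.9, 204.4 and 167.2 CPM, and HET 1, 3 and 4 gave 54.36, 100.1 and 62.36 CPM. The highest HET library, HET 3, was still well under the lowest in WT. The means were 189 ± 19.5 CPM (WT) and 72.3 ± 24.4 CPM (HET) (± SD, n = 3), 2.64-fold lower in HET. On the log2 scale the difference was -1.40 ± 0.19 (SE). Its edgeR adjusted p was 0.00494, and it ranked 8 of 10869 genes by p. HET stood at 37.9% of the WT level, with a 95% interval from 28.5% to 50.4%. Without WT 1 the edgeR adjusted p was 0.0548 and without HET 4 it was 0.0530, with log2 fold changes of -1.38 and -1.30.

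Cdkn1a encodes p21, the inhibitor of cyclin-dependent kinases through which p53 arrests cells in G1 (chromosome 17, 29090976 to 29100727, plus strand). Libraries WT 1, 3 and 4 gave 65.31, 40.07 and 34.82 CPM, and HET 1, 3 and 4 gave 31.05, 11.34 and 8.77 CPM. HET 1 sat just under the lowest WT library, while HET 3 and HET 4 lay far below it. The counting intervals of the neighbours WT 4 and HET 1 met (exact Poisson 95% intervals of 29.4 to 40.9 and 27.7 to 34.7 CPM, for counting error only), and HET 3 and HET 4 had 52 and 45 counts. The means were 46.7 ± 16.3 CPM (WT) and 17.1 ± 12.2 CPM (HET) (± SD, n = 3). The log2 fold change of -1.41 ± 0.48 (SE) was as large as that of Plk2, but its edgeR adjusted p was 0.788 (unadjusted 0.0189).

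Libraries of the same genotype scattered more for Cdkn1a than for Plk2. The SD of its log2 level within groups was 0.74, larger than in 93.3% of genes tested, where Plk2 had 0.34 and the median gene 0.25. Leaving out HET 1 moved Cdkn1a to -2.22 ± 0.31 (SE) on the log2 scale, with edgeR adjusted p = 1.556e-04. When any of the other 5 was dropped instead, the log2 fold change lay between -1.58 and -1.10 and did not pass. HET 1 was also the highest library for a list of 40 cell cycle genes, most of them genes of S phase and mitosis that p21 is known to restrain, with a few members of the pocket protein and DREAM complexes. Their summed level was 6124 CPM in HET 1, 3587 in HET 3, 4309 in HET 4 and 3987 to 4919 in WT. Their median log2 fold change was 0.10 with all libraries and -0.22 without HET 1. When any other library was left out it lay between 0.01 (without WT 4) and 0.27 (without HET 3). Of the 40, 0 passed between the genotypes in edgeR and 1 had an unadjusted p under 0.05. The part of these values in the Cdkn1a result was not tested. Trp53cor1, the long non-coding RNA gene beside Cdkn1a that is known as lincRNA-p21, averaged 6.25 ± 1.49 (WT) and 6.83 ± 1.88 (HET) CPM (± SD, n = 3; log2 fold change 0.14 ± 0.47 SE).

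Ccng1 encodes cyclin G1, which recruits a phosphatase to MDM2 (chromosome 11, 40748552 to 40755311, minus strand). Levels of Ccng1 in WT 1, 3 and 4 were 55.21, 54.88 and 57.24 CPM, and HET 1, 3 and 4 gave 52.67, 54.96 and 49.89 CPM. All 6 libraries lay within a narrow band, in which HET 3 lay between WT 3 and WT 1. The SD of its log2 level within groups, 0.05, was larger than in only 1.06% of genes. Its log2 fold change was -0.09 ± 0.17 (SE), and the 95% interval put HET between 73.3% and 121% of WT. Mdm2 encodes the ligase that degrades p53 (chromosome 10, 117688875 to 117710758, minus strand). Levels of Mdm2 in WT 1, 3 and 4 were 129.9, 107.9 and 111.6 CPM, and HET 1, 3 and 4 gave 125.6, 101.2 and 112.6 CPM. The groups overlapped almost fully, with library 1 the highest in both. Its log2 fold change of -0.04 ± 0.14 (SE) corresponds to a HET level between 79.5% and 119% of WT (95% interval).

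The second group holds targets that act in cell death. Tnfrsf10b encodes the death receptor for TRAIL (chromosome 14, 69767472 to 69784411, plus strand). Libraries WT 1, 3 and 4 gave 29.77, 19.21 and 31.24 CPM, and HET 1, 3 and 4 gave 10.81, 17.23 and 10.52 CPM. HET 3 and WT 3 were close neighbours, and the remaining libraries were well separated. The means were 26.7 ± 6.56 CPM (WT) and 12.9 ± 3.79 CPM (HET) (± SD, n = 3). The log2 fold change was -1.06 ± 0.30 (SE), which placed HET at 47.8% of WT (95% interval 30.8% to 74.1%), with an edgeR adjusted p of 0.297 (unadjusted 0.00214). It did not pass in any of the 13 alternative fits, in which the log2 fold change ran from -1.32 to -0.94. A two-sided exact permutation of the 6 library labels gave p = 0.1 for Plk2, Cdkn1a and Tnfrsf10b each, the smallest it allows. Any gene without overlap between groups, 10.3% of all genes tested, gives that value, so it adds nothing to the separation already described. Tnfsf10, which encodes TRAIL itself, averaged 77.0 ± 18.5 (WT) and 93.6 ± 5.16 (HET) CPM (log2 fold change 0.29 ± 0.17 SE). Of the mouse decoy receptors for TRAIL, Tnfrsf22 had a log2 fold change of -0.49 ± 0.47 (SE).

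Bax encodes the pore-forming protein of the mitochondrial death pathway (chromosome 7, 45461697 to 45466898, minus strand). Levels of Bax in WT 1, 3 and 4 were 15.88, 8.78 and 15.02 CPM, and HET 1, 3 and 4 gave 11.11, 15.48 and 8.96 CPM. High and low libraries were found in both groups, with WT 3 the lowest of all. Its log2 fold change was -0.16 ± 0.36 (SE), and the 95% interval ran from 53.4% to 150% of WT. Bak1, its closest relative in function, had a log2 fold change of 0.11 ± 0.16 (SE). Phlda3, which encodes a pleckstrin homology domain protein that competes with the survival kinase AKT for membrane lipids (chromosome 1, 135766119 to 135769136, plus strand), was barely detected. WT 1, 3 and 4 held 13, 6 and 16 of its reads, and HET 1, 3 and 4 held 11, 0 and 22. A count of 0 in HET 3 lies under the floor of 3 counts, 0.654 CPM in that library, and HET 4 was the highest of all 6 libraries, at 4.29 CPM. The counting intervals of HET 3 (0 to 0.804 CPM) and HET 4 (2.69 to 6.49 CPM, exact Poisson 95%) did not meet, and the within-group SD of the log2 level, 1.26, was larger than in 99.0% of genes. The log2 fold change was -0.42 ± 0.96 (SE), with a 95% interval from 18.7% to 296% of WT, so no direction can be read.

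The remaining targets have other roles. Trp53inp1 encodes a stress-induced nuclear protein that promotes p53 activity and autophagy (chromosome 4, 11156431 to 11174379, plus strand). Libraries WT 1, 3 and 4 gave 36.08, 34.39 and 29.09 CPM, and HET 1, 3 and 4 gave 28.57, 33.15 and 52.81 CPM. HET 4 stood above all other libraries and HET 1 was the lowest. Its log2 fold change was 0.19 ± 0.24 (SE) with all libraries and -0.11 without HET 4. Zmat3 encodes an RNA-binding zinc finger protein (chromosome 3, 32334792 to 32366014, minus strand). Levels of Zmat3 in WT 1, 3 and 4 were 9.56, 15.00 and 10.73 CPM, and HET 1, 3 and 4 gave 14.38, 6.76 and 17.93 CPM. HET libraries held both the highest and the lowest value. The log2 fold change was 0.15 ± 0.38 (SE), and the 95% interval from 64.5% to 192% of WT is wide.

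**Figure D2:**
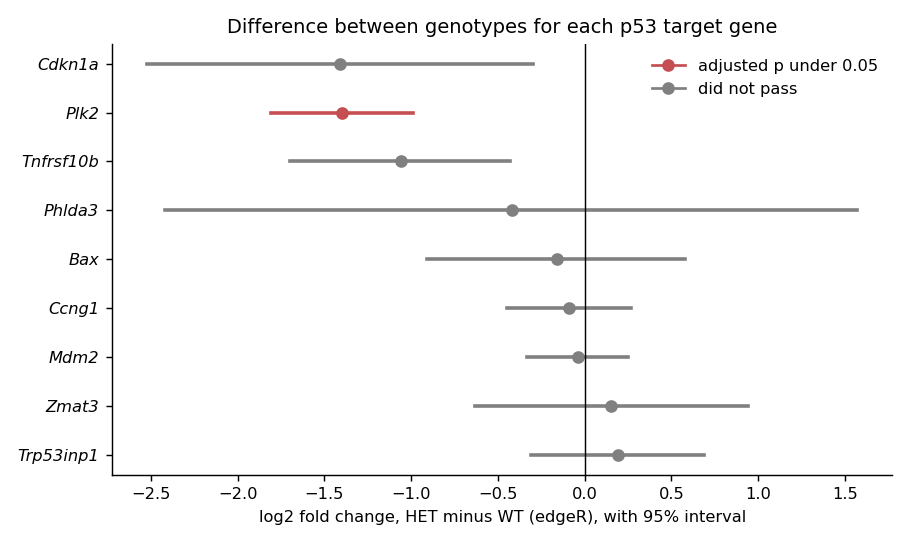
Log2 fold change of HET minus WT (horizontal axis) for the 9 p53 targets, with 95% intervals from the edgeR fit of 6 libraries. Plk2 passed an adjusted p of 0.05, the intervals of Cdkn1a and Tnfrsf10b lie below 0 without passing over all genes, and the intervals of the other 6 include 0.

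No library was uniformly low or high across the 9 targets. HET 4 held the highest value for 3 of them (Trp53inp1, Zmat3 and Phlda3) and the lowest for another 3 (Cdkn1a, Tnfrsf10b and Ccng1). WT 1 was highest for 3 and lowest for 0. The 3 targets without overlap did not rank the HET libraries alike: Plk2 and Tnfrsf10b were highest in HET 3, and Cdkn1a was highest in HET 1. Scaled per kilobase of annotated exon, the mean level in WT was 42.1 CPM for Plk2, 22.9 for Mdm2, 15.9 for Ccng1 and 13.2 for Cdkn1a. It was 8.39 for Bax, 5.13 for Trp53inp1, 4.91 for Tnfrsf10b, 1.55 for Phlda3 and 1.03 for Zmat3. In HET on the same scale Mdm2 stood first at 22.3, ahead of Plk2 at 16.1 and Ccng1 at 14.9, and Cdkn1a, at 4.80, ranked below Bax (7.52) and Trp53inp1 (5.90).

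**Figure D3:**
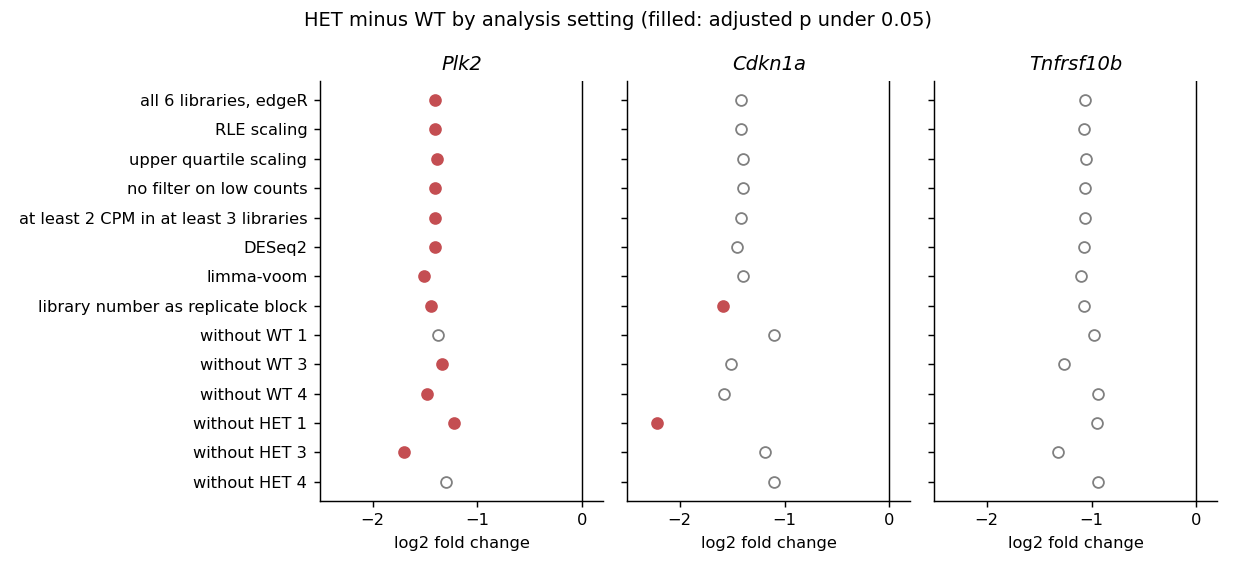
Log2 fold change of HET minus WT (horizontal axis) for Plk2, Cdkn1a and Tnfrsf10b in the edgeR fit of all 6 libraries and in 13 alternatives (rows), with filled points for an adjusted p under 0.05. Plk2 passed in 11 of the 13 alternatives, Cdkn1a in 2 (without HET 1 and with the library number as a block) and Tnfrsf10b in 0, and every point lies below 0.

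The transcript of p53 itself was alike in the 6 libraries. For Trp53, WT 1, 3 and 4 gave 177.7, 165.9 and 179.1 CPM, and HET 1, 3 and 4 gave 192.9, 169.7 and 172.3 CPM. The groups overlapped, with a log2 fold change of 0.03 ± 0.12 (SE). Mdm4, which encodes the MDM2 relative that masks the p53 activation domain, averaged 158 ± 13.8 (WT) and 170 ± 17.2 (HET) CPM (± SD, n = 3; log2 fold change 0.10 ± 0.13 SE). Of the 26 tested genes in the list of p53 and its regulators, 0 passed, 14 had positive and 12 negative fold changes, and the median was 0.02. The 3 smallest p-values in the list were those of Prkdc, Atm and Atr, kinases of the DNA damage response, while the checkpoint kinases Chek1 and Chek2 had log2 fold changes of -0.07 and 0.10. Prkdc (DNA-PK) averaged 59.8 ± 10.9 (WT) and 84.4 ± 3.51 (HET) CPM, without overlap (log2 fold change 0.49 ± 0.17 SE, edgeR adjusted p = 0.572). Atm had 0.42 ± 0.16 (SE, edgeR adjusted p = 0.777) and Atr 0.19 ± 0.19 (SE). Cdkn2a, Trp63 and Trp73 were not analysed here.

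Other p53 targets were listed by role, and several are targets only in some tissues. Adding the 9 genes above, 82 were tested. Of these, 2 fell (Plk2 and Btg2, against 0.221% of all genes tested), 1 rose (Pvt1, against 0.0368%) and 79 did not pass. Their median log2 fold change was -0.04, and 45 of 82 values were negative, against 49.3% of all genes tested. Groups did not overlap for 14 of the 82, 17.1%, against 10.3% of all genes. The cell cycle targets had a median of -0.23 over 10 tested genes, which was -0.07 without WT 3, -0.11 without WT 4 and -0.14 without HET 1. In that list Btg2, an antiproliferative gene that is also an immediate early gene, fell from 193.2, 188.8 and 182.2 CPM in WT 1, 3 and 4 to 95.72, 62.15 and 72.88 CPM in HET 1, 3 and 4. No HET library came near the WT range, and HET was at 41.2% of WT (log2 fold change -1.28 ± 0.15 SE, edgeR adjusted p = 1.679e-04). Plk3, a polo-like kinase related to Plk2, stood at -0.51 ± 0.27 (log2, SE) without overlap between groups (edgeR adjusted p = 0.957), and Fbxw7, which encodes the ubiquitin ligase subunit that recognises MYC, had -0.31 ± 0.17 (SE). Gadd45a, a sensor of growth arrest and DNA damage, had 0.21 ± 0.31 (SE).

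Of 17 tested death genes 0 passed, with a median of 0.01. Pidd1, the scaffold of the PIDDosome, had a log2 fold change of 0.39 ± 0.23 (SE), Trp53inp2, the relative of Trp53inp1, -0.64 ± 0.42, and Bbc3 (PUMA), a principal killer of blood progenitors after irradiation, -0.42 ± 0.33. Of 10 DNA repair targets 0 passed and the median was 0.00, and groups did not overlap for 4 of them, 2 higher and 2 lower in HET, 40.0% against 10.3% of all genes. Polh, a translesion polymerase, averaged 28.0 ± 6.09 (WT) and 40.2 ± 0.609 (HET) CPM (± SD, n = 3; edgeR adjusted p = 0.844). Ddb2, the damage sensor of nucleotide excision repair, was lower in all HET libraries, with a log2 fold change of -0.46 ± 0.24 (SE). Rev3l, the catalytic subunit of polymerase zeta, had 0.64 ± 0.32 (SE).

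Of 17 tested metabolic targets 0 passed and groups overlapped for every one, with a median of -0.04. Sesn1 and Sesn3, the relatives of Sesn2 that restrain TOR signalling, averaged 136 ± 11.5 and 104 ± 21.7 CPM (WT), then 133 ± 37.7 and 107 ± 18.5 CPM (HET) (± SD, n = 3). Tigar, a fructose bisphosphatase, had the largest difference of that list at -0.84 ± 0.62 (SE), on a WT mean of 6.72 CPM. Ddit4, an inhibitor of TOR signalling, had -0.31 ± 0.28 and Fdxr, a mitochondrial reductase, -0.22 ± 0.26 (SE). Among 19 tested targets with other roles, Pvt1, the non-coding RNA gene next to Myc, rose from 3.79, 8.23 and 3.10 CPM in WT 1, 3 and 4 to 22.91, 27.04 and 20.07 CPM in HET 1, 3 and 4 (log2 fold change 2.19 ± 0.38 SE, edgeR adjusted p = 0.00725). It missed the threshold without WT 1, where 0 genes of this list passed. Over the whole set of listed targets, 1 of 83 tested passed without WT 1 and 5 of 82 without HET 1. Of all genes tested, 28 of 10869 passed with all libraries, 11 of 11028 without WT 1 and 68 of 11047 without HET 1. Calls over all genes thus became fewer without WT 1 and more frequent without HET 1. Epha2, an ephrin receptor, averaged 6.17 CPM in WT against 2.10 CPM in HET and did not pass (log2 fold change -1.54 ± 0.62 SE, edgeR adjusted p = 0.806). Ier5, a stress-induced gene, had 0.49 ± 0.20 (SE, edgeR adjusted p = 0.844).

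**Figure D4:**
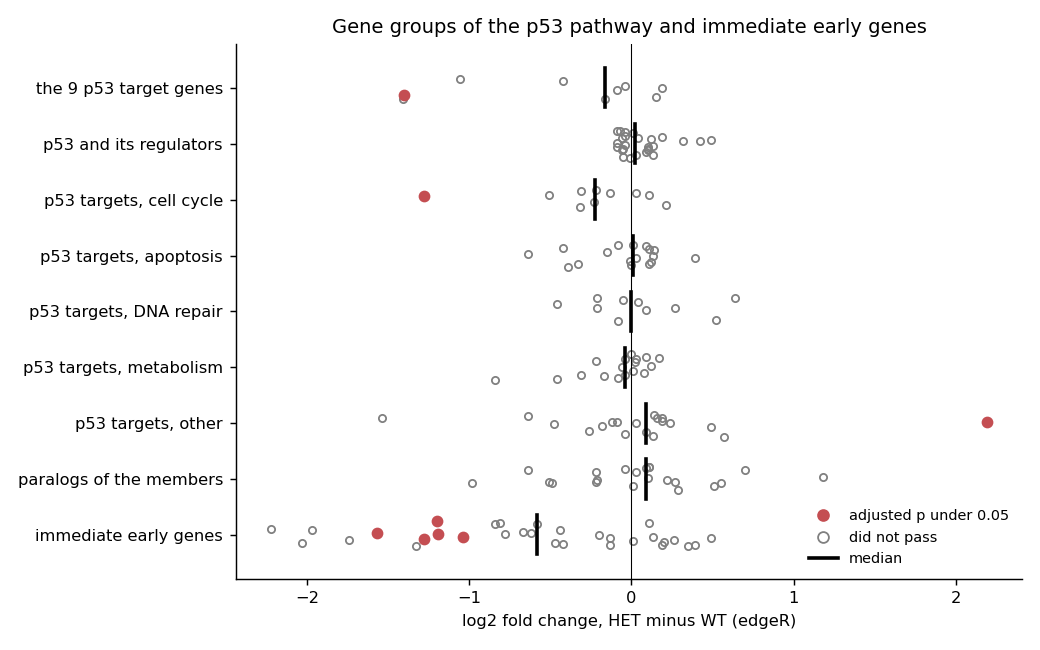
Log2 fold change of HET minus WT (horizontal axis) for each tested gene of the listed groups (rows), with filled points for an edgeR adjusted p under 0.05 and a bar at each group's median. Points that passed are Plk2, Btg2 (in 2 rows), Pvt1 and the immediate early genes Junb, Rgs2, Maff and Fosl2.

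A list of genes related to the 10 targets, which also holds the ligand gene Tnfsf10, had 21 tested members. Of these 0 passed in edgeR and 0 had an unadjusted p under 0.05, 13 had positive and 8 negative fold changes, and the median was 0.09. Groups did not overlap for 2 of the 21, 9.52%, a share near the 10.3% of all genes. Cdkn1b (p27), the relative of p21, averaged 78.9 ± 8.33 CPM (WT) and 95.1 ± 1.01 CPM (HET) (± SD, n = 3) without overlap (log2 fold change 0.27 ± 0.15 SE, edgeR adjusted p = 0.979). Cdkn1c (p57), a quiescence gene of stem cells, had -0.22 ± 0.62 (SE), with groups that overlapped. Plk4, which controls centriole number, had 0.55 ± 0.28 (SE), and Plk1, the mitotic kinase, 0.09 ± 0.35. Zmat1, a relative of Zmat3, had 0.70 ± 0.36 (SE, edgeR adjusted p = 0.957). Ccng2, the relative of Ccng1, had -0.22 ± 0.20 (SE), and Phlda1, the relative of Phlda3, -0.98 ± 0.48 (SE, edgeR adjusted p = 0.950).

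Plk2 and Btg2 are also induced by growth factors, so the immediate early genes, the transcripts that appear first after a growth signal or the handling of cells, are given beside them. Of 31 tested genes of that list, 0 rose and 5 fell (Btg2, Fosl2, Junb, Maff and Rgs2), while 26 missed the threshold, and the median log2 fold change was -0.58. Of all genes tested 0.221% fell in the same fit. Without HET 1, 10 of the list fell and 1 rose, where 52 of all 11047 genes tested fell and 16 rose. Groups did not overlap for 14 of the 31, 45.2% against 10.3% of all genes, with 13 lower in HET, where 5.64% of all genes were, and 1 higher. The summed level was 8956 to 11650 CPM in WT and 6997 to 10120 CPM in HET, so the sums overlapped. By library the list's mean log2 level relative to the WT mean was -0.65, -0.52 and -0.87 in HET 1, 3 and 4, against -0.06, 0.00 and 0.06 in WT 1, 3 and 4. None of the 10 p53 targets is in that list, and of the wider p53 lists Btg2, Gadd45b and Ier5 are. The part of the immediate early pattern in the Plk2 result was not tested. Genes of the type I interferon response to poly(I:C) summed to 801.3 to 1001 CPM in WT and 927.5 to 1152 CPM in HET. In edgeR 0 of these 23 passed, while 18 had positive and 5 negative fold changes, with a median log2 fold change of 0.22. For 3 of the 23 the groups did not overlap, with 3 higher and 0 lower in HET, against 10.3% of all genes in either direction. The part of these interferon response genes was not tested either.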

How the data were processed

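The authors deposited a table of raw read counts, with genes as rows and libraries as columns. The mm10 build and the tools FastQC, STAR 2.5.2b, edgeR and limma are named, without roles, in the submitters' processing notes. No source used here gives the counter, annotation or strand setting, so reads of overlapping or antisense genes may be shared: an exon of Bax overlaps Gm45808 and an exon of Cdkn1a overlaps AC167363.2 in GENCODE M21. Protocol fields attached to the samples describe human biopsies and were not used. Every deposited gene reached at least 1.012 CPM in at least 2 libraries. Groups follow the genotype label and library numbers the titles.

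Counts were fitted with edgeR 4.0.16 (R 4.3.3): filterByExpr left 10869 genes, with TMM scaling, robust dispersions and the two-sided quasi-likelihood F test of HET against WT, adjusted by Benjamini-Hochberg over all of them. Standard errors derive from the F statistic. The script was tested on simulated data. Alternatives were RLE and upper quartile scaling, no filter, a filter of at least 2 CPM in at least 3 libraries, DESeq2 1.42.0, limma-voom (limma 3.58.1), the library number as a block, and leaving out each library. Deviations from the group means correlated at 0.114, -0.049 and 0.069 between same-numbered libraries, and at -0.18 to 0.12 between libraries of unlike number. With 3 libraries per group these values cannot settle pairing. The numbers were not taken to pair libraries, since the labels do not pair them. List levels add 0.5 CPM before the log2. Exon lengths and gene positions come from GENCODE M21, and list genes matched by a newer symbol numbered 2. Named genes were the targets, Trp53, Mdm4 and Myc, genes past the threshold in a list, up to 3 of smallest p per list, and related genes beside a target. A gene that this rule names is not reported here. Gadd45a, Ddb2, Trp53cor1, Eda2r, Pmaip1, Rprm, Gls2 and the marker genes fall outside that rule and were added after their values were seen, as were the motifs. Chek1 and Chek2 fall outside that rule too. The targets and all lists were chosen with earlier results of these data known. Poisson and binomial intervals and the 3-count floor cover counting error only.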

Additional observations from a re-analysis of the deposited data

How the results depend on the processing

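The log2 fold changes of Plk2, Cdkn1a, Tnfrsf10b and Ccng1 were negative in all 13 alternatives. The number of p53 targets passing was 1 in the fit of all libraries, 2 with the library number as a block, where Cdkn1a was added (log2 fold change -1.59, edgeR adjusted p = 0.00311), and between 0 and 2 when a library was left out. The labels share numbers but do not pair the libraries, so the block is no more than a check. Genes passing overall numbered 28, with 59 by DESeq2, 49 with the block and 10 to 68 on leaving out a library (10 without HET 4, 11 without WT 1, 68 without HET 1). The median of the 9 targets ran from -0.39 (without WT 3) to -0.07 (without WT 4). The count of targets without overlap was 4 without WT 3 and without HET 3, and 3 in every other fit. A smaller group separates more easily, and the share over all genes was not computed for fits that leave out a library. Signs turned for genes near 0: Mdm2 had 0.04 without WT 1 and 0.03 without HET 3, Phlda3 0.04 without WT 4 and 0.12 without HET 3, and without HET 4 Bax had 0.00, Trp53inp1 -0.11 and Zmat3 -0.12. Leaving out a library gave Phlda3 values from -1.87 to 0.12, Trp53inp1 from -0.11 to 0.37 and Zmat3 from -0.12 to 0.45. The cause was not tested. Counts were fewest for Phlda3, 35 in WT and 33 in HET, where counting error alone spans 43.6% to 120% of WT. For Bax and Zmat3 counting error spans 72.8% to 107% and 94.3% to 139%, narrower than their fitted intervals.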

Other observations

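Of the listed p53 targets in the table, 5 were too low to be tested, and their averages were not all lower in HET. Rprm, a cell cycle target, averaged 1.14 CPM in WT and 1.66 CPM in HET. Gls2, a metabolic target, averaged 1.45 CPM in WT and 0.628 CPM in HET. Eda2r, a receptor of the TNF receptor family, was counted 13, 9 and 6 times in WT 1, 3 and 4 and 7, 1 and 1 times in HET 1, 3 and 4. Pmaip1 (NOXA), a BH3-only death gene, was counted 39, 9 and 5 times in WT and 29, 0 and 9 times in HET, in the same order. On the depth-scaled level library 1 was the highest of each group as well, at 7.04 and 2.88 CPM for Pmaip1 and 2.35 and 0.69 CPM for Eda2r in WT 1 and HET 1.

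Genes whose log2 level followed a target most closely over the 6 libraries were picked from 9386 genes by Pearson correlation, as a description. For Cdkn1a these were Mmp2 (r = 0.998), Ccnl1 (0.994), Pabpc1 (0.989) and Etf1 (0.988). For Ccnl1, libraries WT 1, 3 and 4 gave 498.8, 399.0 and 407.8 CPM, and HET 1, 3 and 4 gave 377.9, 273.5 and 262.5 CPM, with WT 1 the highest and HET 4 the lowest, as for Cdkn1a. For Plk2 they were Rps21 (0.986), Spred1 (0.985), Oaz2 (0.979) and Usmg5 (0.976), and for Tnfrsf10b Sox13 (0.993), Tle1 (0.987), N4bp3 (0.982) and Hlx (0.980). None of the 12 passed between the genotypes in edgeR, and the groups themselves contribute to each correlation.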
